A study of Homo sapiens with 32 samples.

Results

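The genes described here were the human replication-dependent histone genes, which encode the linker histone H1 and the core histones H2A, H2B, H3 and H4. Members were the protein-coding genes whose current symbol is H1-1 to H1-6, or starts with H2AC, H2BC, H3C or H4C followed by a number. The annotation of GRCh37 held 64 such genes, and 33 of them matched an identifier among the 48804 genes of the count table. The remaining 31 were not analysed here. The 33 comprised 6 of 6 annotated H1 genes, 8 of 16 H2A, 10 of 16 H2B, 5 of 13 H3 and 4 of 13 H4 genes. Of these, 23 lie between 25723625 and 27861669 on chromosome 6, 7 between 149754245 and 149859515 on chromosome 1, 2 between 228622478 and 228650805 on chromosome 1 and 1 on chromosome 12.

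The cells were MDA-MB-468, an established human triple-negative breast cancer line, grown in seeded flasks. They received PBS (control), 0.5 μM salinomycin (Sal, a potassium ionophore), 15 μM dasatinib (Das, an inhibitor of SRC and ABL kinases) or both drugs (S + D), for 24 h or 72 h. The question addressed was how each drug and the combination altered the transcriptome at each time. The study describes 4 biological replicates per condition, and the series held 32 RNA-seq libraries. In the labels 3 libraries per condition carry a replicate number and 1 carries none. Total counts ranged from 25692561 to 42769687 per library.

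Replication-dependent histone genes supply the proteins that package newly copied DNA, and most of their transcription falls in S phase. Most of their transcripts end in a stem-loop bound by the protein SLBP in place of a poly(A) tail. Some members also give polyadenylated transcripts that read past the stem-loop. The libraries were made with a TruSeq RNA kit, and whether poly(A) RNA was selected is not given in the sources used here.

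The stem-loop is shown because it sets these transcripts apart from other mRNAs. A 16-base stem-loop was found within 150 bases after the stop codon in 32 of the 33 members, starting 23 to 58 bases past it, and H2AC11 had no match. It took 4 forms: 20 members carried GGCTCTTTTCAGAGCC, 7 carried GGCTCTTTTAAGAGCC, 4 carried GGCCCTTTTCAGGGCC and H2AC20 carried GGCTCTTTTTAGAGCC. Below, the stem-loop is in capitals with 5 flanking bases on each side, 5′ to 3′ on the coding strand, and the GRCh37 coordinates are those of the stem-loop.
H1-2 (chr6:26055972-26055987, minus strand): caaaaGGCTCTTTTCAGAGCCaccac
H2AC6 (chr6:26124897-26124912, plus strand): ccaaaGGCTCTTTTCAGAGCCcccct
H2BC12 (chr6:27114145-27114160, minus strand): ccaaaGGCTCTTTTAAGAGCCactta
H2BC15 (chr6:27806868-27806883, plus strand): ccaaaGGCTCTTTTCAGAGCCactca
H2BC4 (chr6:26123700-26123715, minus strand): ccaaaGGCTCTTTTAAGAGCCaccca
H4C8 (chr6:26285359-26285374, minus strand): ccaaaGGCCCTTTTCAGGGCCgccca

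The annotated genes differed in what lies downstream of that element. In 20 members the farthest annotated exon ended 3 to 6 bases past the stem-loop, and in 12 it ended 1729 to 37155 bases past it. The distance was 5 bases for H2BC12 and 4 for H1-2, against 1729 for H2BC21, 12747 for H2BC5, 14432 for H2AC6, 16604 for H2BC15 and 37155 for H2BC4. The table gives 1 count per gene, so a count does not tell which part of an annotated gene the reads came from.

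**Figure D1:**
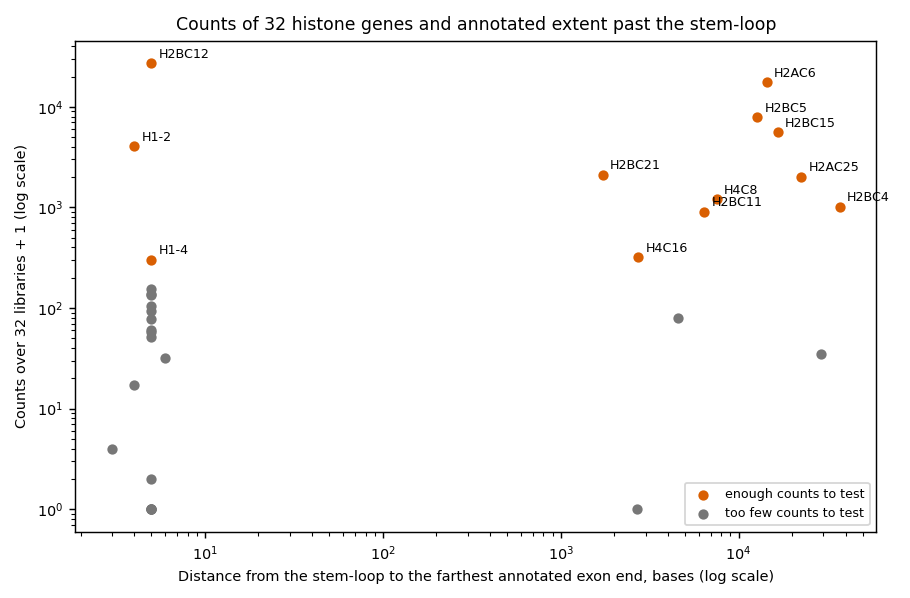
Counts summed over the 32 libraries plus 1 (y axis, log scale) against the genomic distance in bases from the stem-loop to the farthest annotated exon end (x axis, log scale), for the 32 members with a stem-loop. Orange points are members with enough counts to test and grey points members with too few: 9 of the 12 members with a distant end were tested, and 3 of the 20 that end beside the stem-loop. Annotated exon length was 861 to 5002 bases in the 12 and 389 to 858 bases in the 20. Counts are not divided by length, and the part of length was not tested.

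Promoters of 31 of the 33 members matched the RefSeq table, and the 250 bases before the start site were searched on both strands for 3 motifs. Where RefSeq gave a member more than 1 start, an entry identical to another member's window (that of H3C4 with H2AC7) was left out and the first remaining was used. TATAAA (the sequence of the TATA box) was present in 71.0% of the 31 windows and in 10.7% of all 35116 promoters. A match counted at any position: the only one of H2BC4 began at -220 and that of H4C16 at -250. CCAAT (the CCAAT box) was present in 90.3% against 32%, in every H1, H2A, H2B and H3 window and in none of the 3 H4 windows. ATTTGCAT (the octamer bound by POU factors) was present in 38.7% against 1.6%, in 6 of 8 H2A and 6 of 10 H2B windows and in none of the others. Genes that start back to back share DNA, so a match can count in both windows. The octamer did so for H2AC1 and H2BC1, H2AC6 and H2BC4, H2AC11 and H2BC11, and H2AC20 and H2BC21. The windows below are shown because their genes differed in response: H2AC6 was called lower, H2BC12 was not called and H2BC15 was called higher. Capitals mark the motifs on either strand, and sequences and coordinates are those of RefSeq on GRCh38.p14.
H2AC6 (chr6:26123922-26124171, plus strand): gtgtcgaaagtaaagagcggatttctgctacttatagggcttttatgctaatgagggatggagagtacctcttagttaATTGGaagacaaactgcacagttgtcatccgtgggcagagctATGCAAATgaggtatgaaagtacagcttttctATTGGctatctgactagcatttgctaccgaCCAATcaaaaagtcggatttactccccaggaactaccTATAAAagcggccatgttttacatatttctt
H2BC12 (chr6:27146859-27147108, minus strand): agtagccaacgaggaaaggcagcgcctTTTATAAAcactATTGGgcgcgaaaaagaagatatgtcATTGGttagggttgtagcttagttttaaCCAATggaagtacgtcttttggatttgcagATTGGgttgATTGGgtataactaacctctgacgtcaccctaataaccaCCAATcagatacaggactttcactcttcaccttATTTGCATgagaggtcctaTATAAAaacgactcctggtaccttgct
H2BC15 (chr6:27838319-27838568, plus strand): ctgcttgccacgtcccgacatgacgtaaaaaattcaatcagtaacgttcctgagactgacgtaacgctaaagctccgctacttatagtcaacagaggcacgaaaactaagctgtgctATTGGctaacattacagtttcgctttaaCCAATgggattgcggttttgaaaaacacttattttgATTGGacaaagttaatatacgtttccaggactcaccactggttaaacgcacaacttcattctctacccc
The H2AC6 window held TATAAA, 3 CCAAT matches and the octamer, and read on the other strand it is nearly the window of H2BC4, whose start lies 219 bases away in GRCh37. The H2BC12 window held all 3 motifs, with 6 CCAAT matches. The H2BC15 window held 3 CCAAT matches and neither of the other motifs. Other windows of tested members held no TATAAA or octamer either. H1-2, called lower with S + D at 72 h, had 1 CCAAT match, and H4C8, also called lower, had none of the 3 motifs. H2AC25, not called, had 3 CCAAT matches only. A link between motifs and response was not tested. A match describes these letters only and does not show that a factor binds there.

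Few members were measured well. Counts over all libraries came to 73248 for the 33 members, and H2BC12 and H2AC6 took 61.0% of them. With H2BC5 and H2BC15 the share was 79.5%. At 24 h 13 members passed the filter on low counts (filterByExpr, minimum count 10): H1-2, H1-4, H2AC6, H2AC11, H2AC25, H2BC4, H2BC5, H2BC11, H2BC12, H2BC15, H2BC21, H4C8 and H4C16. At 72 h 12 passed, without H1-4. The other 20, among them all 5 H3 genes, held 1.41% of the members' counts, and H2AC1, H2AC7, H2BC1, H3C14 and H3C15 were at 0 in every library.

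Reads of histone genes can match near-identical copies, and how such reads were counted is not given in the sources used here. Of the 50-base windows in the exons, 42.8% of those of H2BC12 occur at no other place in GRCh37, against 99.6% for H2AC6, 92.0% for H2BC21 and 90.6% for H2BC15. Of the exon bases of H2BC4, 30.9% overlap genes on the opposite strand, and of H4C8 13.3%. For H3C4 96.6% lie in another annotated gene of the same strand, and for H2AC7 85.3%. In H3C14 and H3C15 0% of the windows occur once, so that their counts of 0, and that of H2AC7, need not mean that no RNA was present. Whether counting used strand is not given, so the values of these genes are uncertain to that extent.

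Per kb of annotated exon, H2BC12 had the highest mean level over the 32 libraries, 51.1 CPM (counts scaled to the size of the library) per kb. H2AC6 followed with 9.69, H2BC5 with 8.53, H1-2 with 5 and H2AC11 with 3.92 CPM per kb. H2BC15 had 1.25 CPM per kb and H3C4, the highest of the 5 H3 genes analysed, 0.28. All levels that follow are CPM not divided by length, given for replicates 1, 2, 3 and the unnumbered library in that order.

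Some libraries stood apart. The unnumbered library was the lowest of its 4 in 7 of 8 conditions for H2AC11, in 6 of 8 for H2AC6, H2BC5 and H2BC12 and in 5 of 8 for H2BC4, H2BC15 and H2BC21, whereas for H1-2 it was the highest in 6 of 8. Across genes, deviations from the condition means correlated at 0.588 to 0.666 between unnumbered libraries at 24 h and at 0.522 to 0.611 at 72 h. The Das replicate 3 at 72 h lay nearest the controls for several members. What sets these libraries apart was not tested. The epithelial genes EPCAM, KRT8, KRT18, KRT19 and EGFR had at least 5789 counts in every library, and 4 of these 5 were called lower with S + D at 72 h. PTPRC and CD3E, genes of leukocytes, had at most 5 and 2 counts. COL1A1, a collagen gene of fibroblasts, had 602 to 4275 counts. It was called higher with Sal (1.22 ± 0.21 on the log2 scale, ± standard error) and with S + D (1.62 ± 0.21) at 72 h. The part of these markers in the histone results was not tested. Fewer cells in S phase and less histone RNA per cell cannot be told apart in bulk libraries.

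**Figure D2:**
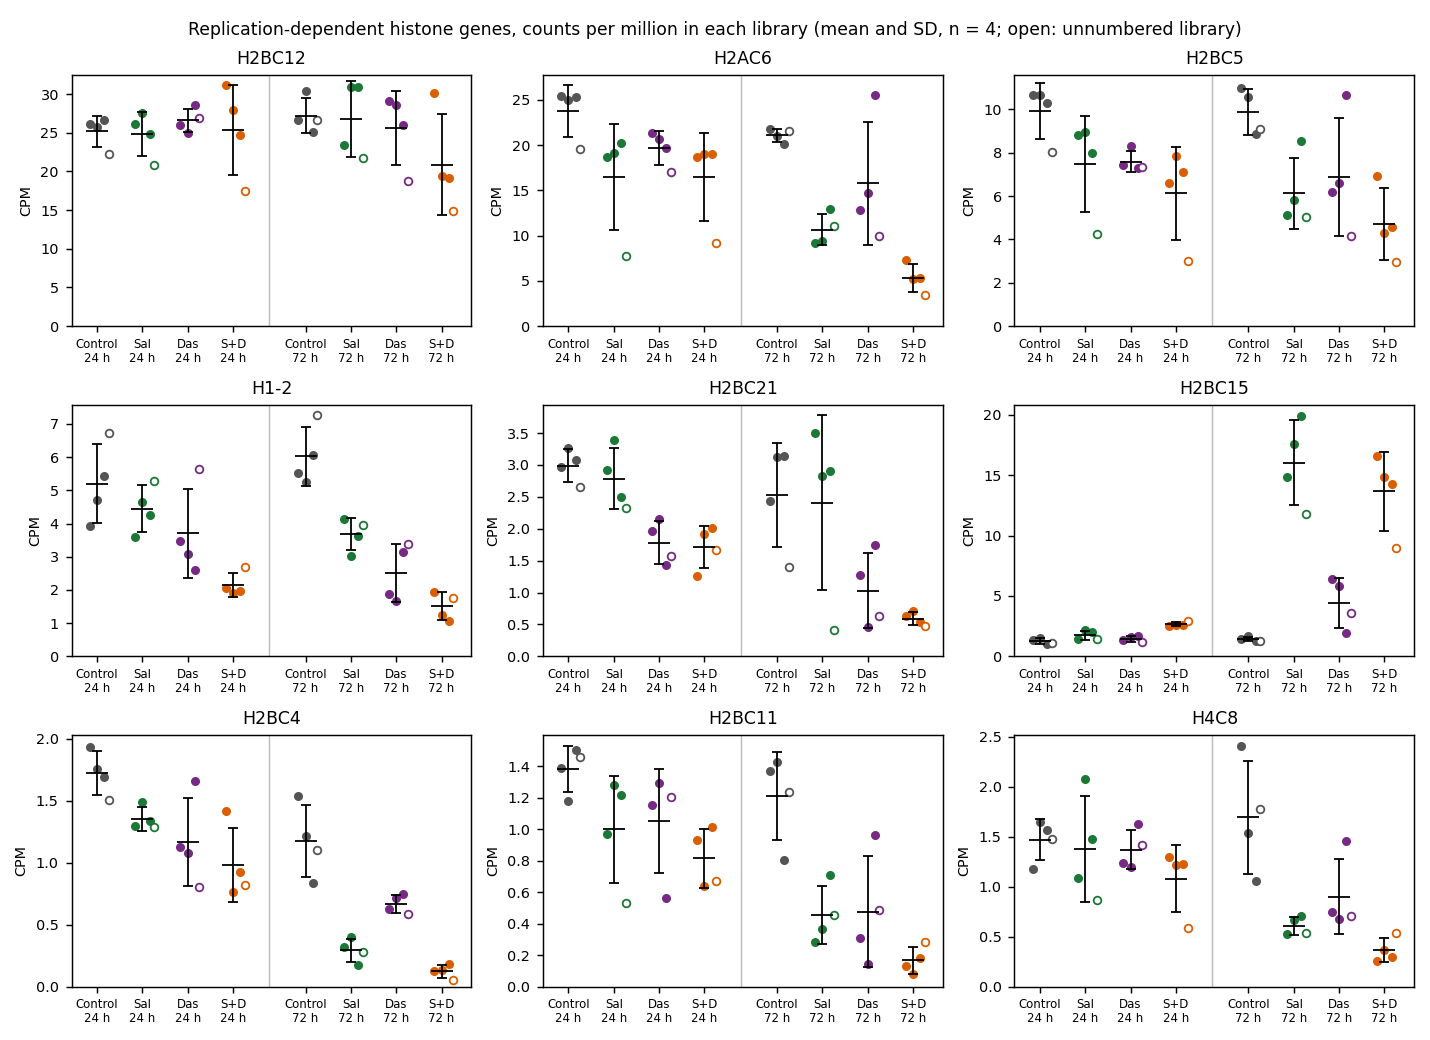
CPM (y axis) of 9 members in each library, by condition (x axis). Filled points are numbered libraries, open points the unnumbered library, and bars and whiskers the mean and SD (n = 4). H2BC15 lies between 8.95 and 19.9 CPM with Sal and S + D at 72 h, and every S + D library at 72 h lies below every 72 h control for H2AC6, H1-2, H2BC4, H2BC5, H2BC11, H2BC21 and H4C8. How many of all genes separate in the same way was not counted.

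Controls of the same time served as the reference for all treatments. The test was the quasi-likelihood test of edgeR, p-values were adjusted after Benjamini and Hochberg over all genes tested, and a gene was called at an adjusted p under 0.01. The ± on a log2 fold change, difference or interaction term is a standard error derived from that test. It is the absolute value divided by the square root of the F statistic, and not the SD of the libraries. The 3 treatments of a time share the same 4 control libraries. Counts of members at an unadjusted p, those of some alternatives, and groups that did not overlap are given without a share of all genes. Such results do not show how members moved relative to all genes.

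At 24 h few members were called with single drugs, near the shares of all genes called. With Sal, edgeR called none of the 13, beside 2.23% of all 16357 genes lower and 4.55% higher. The unadjusted p was under 0.05 for 1 member, and DESeq2 also called 0. In the numbered libraries alone 1 member was lower, beside 10.9% of all genes in that fit. With Das 1 of 13 was lower, H2BC21, beside 6.88% of all genes, and none was higher, beside 6.99%. In the numbered libraries alone 5 were lower, beside 18.7%. With S + D 2 of 13 were lower, H1-2 and H2BC21, beside 16.5% of all genes, and 1 was higher, H2BC15, beside 17.1%. In the numbered libraries alone 6 were lower, beside 29.4%. Median log2 fold changes of the 13 were -0.24 for Sal, -0.36 for Das and -0.66 for S + D, against -0.02, 0.02 and 0.04 over all genes.

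At 72 h more members were called, as were more of all genes. With Sal 4 of 12 were lower (H2AC6, H2BC4, H2BC11 and H4C8), beside 26.8% of all 16682 genes, and H2BC15 was higher, beside 26.3%. With Das H1-2 was lower, beside 9.36% of all genes, and H2BC15 higher, beside 10.5%. Without Das replicate 3 the number lower with Das was 4, beside 13.2%, as H2AC6, H2BC11 and H4C8 were called too. It was 2 in the numbered libraries alone, beside 11.5%, and 3 with a term for the unnumbered libraries, beside 15.5%. With S + D 8 of 12 were lower, beside 27.9% of all genes, and H2BC15 was higher, beside 27.0%. The 8 were H1-2, H2AC6, H2AC11, H2BC4, H2BC5, H2BC11, H2BC21 and H4C8, and the members not called were H2AC25, H2BC12 and H4C16. Median log2 fold changes of the 12 were -0.63 for Sal, -0.67 for Das and -1.67 for S + D, against 0.00, 0.02 and 0.01 over all genes.

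**Figure D3:**
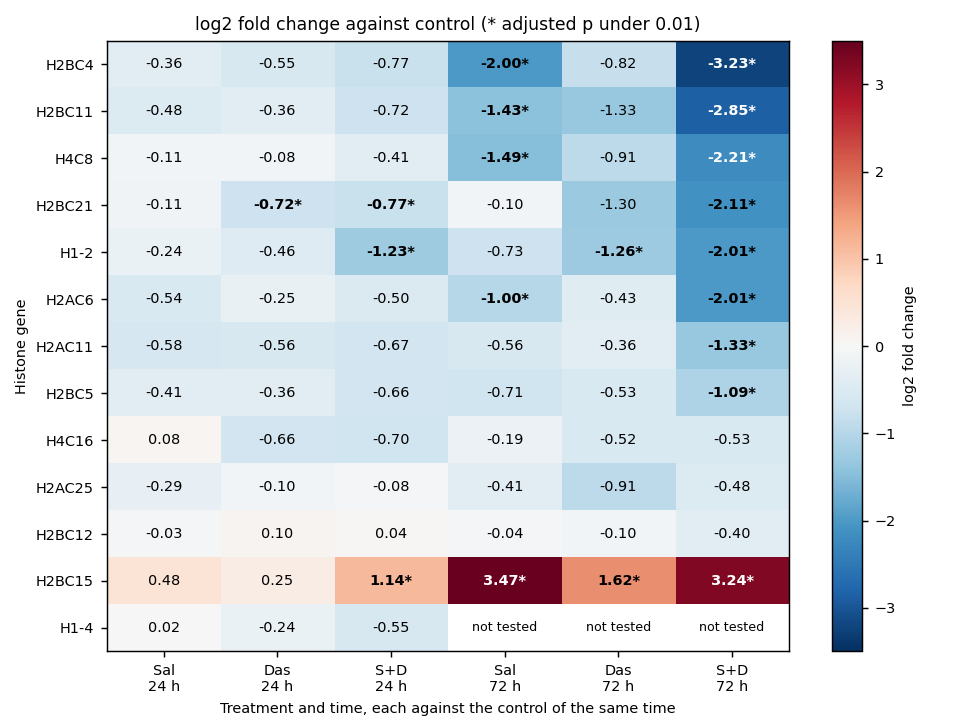
Log2 fold change (colour and number) of the 13 tested members (rows) in the 6 treatment comparisons (columns), each against the control of the same time. Asterisks mark an adjusted p under 0.01. With S + D at 72 h 8 members are called lower, H2BC15 is called higher at 3.24 and H2BC12 stands at -0.40 with no call.

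H1-2, a linker histone gene whose product binds the DNA between nucleosomes, fell with Das and with S + D at 72 h. The 72 h controls read 5.52, 5.26, 6.06 and 7.27 CPM. The Das libraries read 1.86, 1.68, 3.14 and 3.38 CPM and the S + D libraries 1.95, 1.26, 1.07 and 1.77 CPM, all below every control. The log2 fold change was -1.26 ± 0.24 (edgeR adjusted p = 0.000788) with Das and -2.01 ± 0.25 (edgeR adjusted p = 1.93e-06) with S + D. The Sal libraries, at 4.13, 3.02, 3.61 and 3.96 CPM, were also below every control, but their log2 fold change of -0.73 ± 0.24 (edgeR adjusted p = 0.0118) was not called. DESeq2 and 4 of the other 7 alternatives called it. At 24 h the control mean was 5.2 ± 1.18 CPM and the S + D mean 2.16 ± 0.361 CPM (SD, n = 4), with a log2 fold change of -1.23 ± 0.23 (edgeR adjusted p = 0.000418). H1-4, the other H1 gene tested, had 0 to 27 counts per library and was not called at 24 h.

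H2AC6 encodes a core histone H2A and fell with Sal and S + D at 72 h. The controls read 21.8, 21.1, 20.1 and 21.5 CPM, the Sal libraries 9.17, 9.46, 13 and 11 CPM and the S + D libraries 7.26, 5.18, 5.37 and 3.45 CPM. The Sal group lay wholly below the controls and the S + D group wholly below Sal. The log2 fold change was -1.0 ± 0.24 (edgeR adjusted p = 0.00158) with Sal and -2.01 ± 0.25 (edgeR adjusted p = 2.32e-06) with S + D. The Das libraries read 12.8, 14.7, 25.5 and 10 CPM, so that replicate 3 lay above every control. The Das value of -0.43 ± 0.24 (edgeR adjusted p = 0.18) was not called, and without replicate 3 it was -0.75 (edgeR adjusted p = 0.00704). At 24 h the controls read 25.4, 25, 25.3 and 19.5 CPM and the S + D libraries 18.6, 19, 19 and 9.17 CPM, with no overlap. That log2 fold change was -0.50 ± 0.26 (edgeR adjusted p = 0.136) in all libraries and -0.40 (edgeR adjusted p = 1.32e-05) in the numbered ones. With Sal at 24 h it was -0.54 ± 0.26 (edgeR adjusted p = 0.198) in all libraries and -0.37 (edgeR adjusted p = 0.000133) in the numbered ones.

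Of the other H2A genes, H2AC11 had a 72 h control mean of 2.13 ± 0.322 CPM and an S + D mean of 0.851 ± 0.161 CPM (SD, n = 4), with no overlap and a log2 fold change of -1.33 ± 0.28 (edgeR adjusted p = 0.000446). H2AC25, which lies apart from the large clusters on chromosome 1, was called in no comparison, and its S + D value at 72 h was -0.48 ± 0.33.

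The H2B genes moved in both directions, and H2BC15 rose. Its 72 h controls read 1.44, 1.69, 1.31 and 1.26 CPM. The Sal libraries read 14.9, 17.6, 19.9 and 11.8 CPM, the Das libraries 6.37, 5.86, 1.93 and 3.6 CPM and the S + D libraries 16.6, 14.8, 14.2 and 8.95 CPM. Every treated library was above every control, with Das replicate 3 nearest to them. The log2 fold change was 3.47 ± 0.32 (edgeR adjusted p = 1.01e-07) for Sal, 1.62 ± 0.31 (edgeR adjusted p = 0.000774) for Das and 3.24 ± 0.31 (edgeR adjusted p = 1.47e-07) for S + D. At 24 h the S + D libraries read 2.53, 2.62, 2.6 and 2.9 CPM against 1.33, 1.53, 1 and 1.08 CPM in the controls, a log2 fold change of 1.14 ± 0.19 (edgeR adjusted p = 0.000157). The 24 h values with Sal (0.48 ± 0.19) and Das (0.25 ± 0.20) were not called.

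H2BC12, the member with the most counts, was called in no comparison. Its control mean was 25.2 ± 1.98 CPM at 24 h and 27.2 ± 2.27 CPM at 72 h (SD, n = 4). The 72 h S + D libraries read 30.1, 19.4, 19.2 and 14.9 CPM, and the highest of them lay within the range of the controls, 26.7, 30.4, 25.1 and 26.6 CPM. The log2 fold change was -0.40 ± 0.19 (edgeR adjusted p = 0.0759), and without S + D replicate 1 it was -0.63 (edgeR adjusted p = 0.00503). With Sal and Das at 72 h it was -0.04 ± 0.19 and -0.10 ± 0.19. The ratio of H2BC15 counts to H2BC12 counts within a library does not depend on library scaling. It was 0.0475 to 0.0556 in the 72 h controls, 0.541 to 0.642 for Sal, 0.0742 to 0.219 for Das and 0.551 to 0.763 for S + D.

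H2BC4 and H2BC11 had few counts and the lowest log2 fold changes of the members with S + D at 72 h. H2BC4 had 46, 46, 30 and 41 counts in the 72 h controls, 9, 12, 5 and 11 with Sal and 4, 5, 6 and 2 with S + D. Both treated groups lay below every control in CPM, with log2 fold changes of -2.0 ± 0.30 (edgeR adjusted p = 1.99e-05) and -3.23 ± 0.34 (edgeR adjusted p = 3.42e-07). With Das it had 20, 20, 24 and 24 counts, also below every control in CPM, and the value of -0.82 ± 0.28 (edgeR adjusted p = 0.0311) was not called. H2BC11 had 41, 54, 29 and 46 counts in the 72 h controls, 8, 11, 20 and 18 for Sal, 10, 4, 31 and 20 for Das and 4, 3, 6 and 10 for S + D. The S + D and Sal groups lay below every control in CPM, with values of -2.85 ± 0.49 (edgeR adjusted p = 6.15e-05) and -1.43 ± 0.43 (edgeR adjusted p = 0.00811). The Sal call was kept in 2 of 8 fits that left out a library. The Das value was -1.33 ± 0.43 (edgeR adjusted p = 0.0241).

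H2BC5 fell with S + D at 72 h, from 11, 10.6, 8.87 and 9.1 CPM in the controls to 6.95, 4.29, 4.59 and 2.95 CPM. The groups did not overlap and the log2 fold change was -1.09 ± 0.27 (edgeR adjusted p = 0.00193), a call lost without the unnumbered S + D library. With Sal and Das at 72 h the values of -0.71 ± 0.27 and -0.53 ± 0.27 were not called.

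H2BC21 was the 1 member called with Das at 24 h. The 24 h controls read 2.96, 3.26, 3.07 and 2.66 CPM, the Das libraries 1.96, 2.15, 1.43 and 1.58 CPM and the S + D libraries 1.27, 1.92, 2 and 1.67 CPM. Both treated groups lay below every control, with log2 fold changes of -0.72 ± 0.18 (edgeR adjusted p = 0.00928) and -0.77 ± 0.18 (edgeR adjusted p = 0.00301). The Das call was kept in 1 of 8 fits that left out a library, and the S + D call was lost without S + D replicate 1. At 72 h the controls read 2.44, 3.12, 3.14 and 1.4 CPM and the S + D libraries 0.64, 0.707, 0.537 and 0.477 CPM, with no overlap and a value of -2.11 ± 0.51 (edgeR adjusted p = 0.00154). The 72 h Sal libraries read 3.5, 2.82, 2.9 and 0.406 CPM, so that the unnumbered library stood far below the others, and their value of -0.10 ± 0.47 was not called.

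Only 5 of the 13 annotated H3 genes matched an identifier in the counts, and none of these 5 passed the filter on low counts. H3C4, the highest of them, had 8, 7, 4 and 12 counts in the 72 h controls, 2, 0, 0 and 0 for Sal, 6, 3, 5 and 2 for Das and 2, 0, 2 and 4 for S + D.

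H4C8, a core histone H4 gene, fell with Sal and S + D at 72 h. The controls read 2.41, 1.53, 1.06 and 1.78 CPM, the Sal libraries 0.525, 0.664, 0.708 and 0.533 CPM and the S + D libraries 0.256, 0.366, 0.298 and 0.533 CPM. Neither treated group overlapped the controls, and the log2 fold change was -1.49 ± 0.32 (edgeR adjusted p = 0.000534) with Sal and -2.21 ± 0.33 (edgeR adjusted p = 1.6e-05) with S + D. The Das libraries read 0.746, 0.679, 1.46 and 0.71 CPM, with a value of -0.91 ± 0.31 (edgeR adjusted p = 0.0286) in all and -1.23 (edgeR adjusted p = 0.00347) without replicate 3. H4C16, on chromosome 12, had 2 to 20 counts per library and was called in no comparison.

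The 20 members with too few counts were described only by their sum, given first in counts not scaled to depth. It was 61, 75, 68 and 92 counts in the 24 h controls and 41, 35, 45 and 48 in the 72 h controls. At 24 h it was 41 to 52 counts for Sal, 22 to 46 for Das and 13 to 25 for S + D. At 72 h it was 8, 9, 10 and 15 counts for Sal, 16, 13, 32 and 27 for Das and 12, 9, 17 and 11 for S + D. In these counts all treated libraries lay below all controls of their time. Scaled to CPM this held except for Das at 72 h. There the highest Das library read 0.994 CPM and the lowest control 0.926 CPM.

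**Figure D4:**
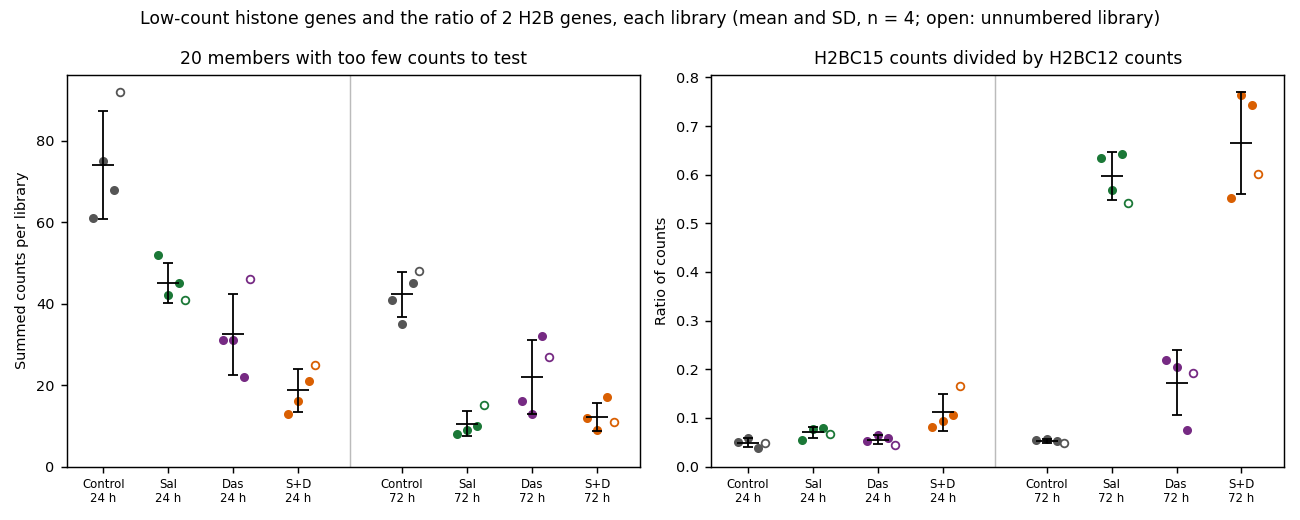
Left, counts summed over the 20 members with too few counts to test, per library (y axis, not scaled to depth) by condition (x axis). Right, counts of H2BC15 divided by counts of H2BC12 in the same library. Filled points are numbered libraries, open points the unnumbered library, and bars and whiskers the mean and SD (n = 4); at 72 h the sum is 8 to 17 counts with Sal and S + D against 35 to 48 in the controls.

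The combination was then compared with each drug at 72 h. H1-2 was lower with S + D than with Sal (-1.28 ± 0.25 (edgeR adjusted p = 0.00389)), beside 1.59% of all genes, and no member was higher, beside 1.42%. That call was lost without S + D replicate 2 or 3 or Sal replicate 1 or 3, and DESeq2 called 3 members lower. The unadjusted p was under 0.05 for 6 of 12, with no share of all genes at that cutoff given here. Against Das 4 were lower, H2AC6 (-1.58 ± 0.25), H2AC11 (-0.97 ± 0.28), H2BC4 (-2.41 ± 0.35) and H4C8 (-1.30 ± 0.34), beside 17.7% of all genes, and H2BC15 was higher (1.62 ± 0.29), beside 14.3%. Without Das replicate 3, or without S + D replicate 1, 2 or 3, the number lower was 2. The counts from these fits and from DESeq2 have no share of all genes beside them.

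An interaction term set S + D at 72 h against the sum of the single responses on the log2 scale. H2BC15 lay below that sum, with an interaction term of -1.85 ± 0.41 (edgeR adjusted p = 0.00572), beside 4.09% of all genes, and no member lay above it, beside 3.43%. The call was kept in 5 of 16 fits that left out a library. The 8 members lower with S + D lay between -0.71 and 0.19 from the sum and none was called.

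The time points were compared in a fit of all 32 libraries, with 17227 genes and 13 tested members. Between 72 h and 24 h controls edgeR and DESeq2 called no member, beside 0.76% of all genes lower and 2.0% higher, and 1 member had an unadjusted p under 0.05. The Sal response at 72 h exceeded that at 24 h for H2BC15 by 3.00 ± 0.38 (edgeR adjusted p = 1.02e-06), beside 8.21% of all genes, and was more negative for H2BC4, with a difference of -1.64 ± 0.36 (edgeR adjusted p = 0.000775), beside 13.7%. The S + D response was more negative at 72 h for H2AC6 (-1.46 ± 0.37), H2BC4 (-2.41 ± 0.39), H2BC11 (-2.08 ± 0.56) and H4C8 (-1.75 ± 0.43), beside 10.1% of all genes, and more positive for H2BC15 (2.15 ± 0.37), beside 6.15%. For Das edgeR called no member, beside 0.174% lower and 0.0522% higher, 2 had an unadjusted p under 0.05, and DESeq2 also called none.

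Polyadenylated transcripts are known for the 5 members H1-2, H2AC6, H2BC5, H2BC12 and H2BC21. Of these 1 was lower for Sal at 72 h, 1 for Das and 4 for S + D, with medians of -0.71, -0.53 and -2.01, beside 26.8%, 9.36% and 27.9% of all genes lower.

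Genes that act on histone mRNA changed in part. Of 15 genes for histone transcription and mRNA processing, 6 were lower and 2 higher with Sal at 72 h, and 7 lower with S + D, beside 26.8% of all genes lower and 26.3% higher with Sal and 27.9% lower with S + D. With Das edgeR called none, and 6 had an unadjusted p under 0.05. LSM11, a subunit of the U7 snRNP that cleaves histone pre-mRNA, was lower with Sal (-1.52 ± 0.21) and S + D (-1.16 ± 0.21). SLBP, the stem-loop binding protein, was not called, at 0.01 ± 0.10 for Sal, -0.21 ± 0.10 for Das and -0.21 ± 0.10 for S + D at 72 h and -0.36 ± 0.10 (edgeR adjusted p = 0.0102) for S + D at 24 h. NPAT, a coactivator of histone gene transcription, was higher with Sal at 72 h (0.56 ± 0.15 (edgeR adjusted p = 0.00398)) and not called with Das (0.25 ± 0.15) or S + D (0.25 ± 0.15).

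Of 11 histone genes outside the replication-dependent set, 5 were lower and 1 higher for Sal at 72 h, 4 lower for Das, and 7 lower and 1 higher for S + D, beside 26.8%, 9.36% and 27.9% of all genes lower and 26.3% and 27.0% higher with Sal and S + D. CENPA, the H3 variant of centromeres, was at -2.84 ± 0.40 with Sal and -2.92 ± 0.40 with S + D. H2AX, the H2A variant that is phosphorylated at DNA breaks, was lower in all 6 comparisons. Its mean was 80.3 ± 13.5 CPM in the 72 h controls, 14 ± 4.6 CPM for Sal, 32.9 ± 16.2 CPM for Das and 12.7 ± 3.6 CPM for S + D (SD, n = 4).

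Histone chaperones and S phase genes were counted in the same way. Of 16 chaperone genes tested, 12 were lower for Sal, 5 for Das and 12 for S + D at 72 h, beside 26.8%, 9.36% and 27.9% of all genes. The largest called changes were those of HJURP, the chaperone of CENPA, for Sal (-2.77 ± 0.34), CHAF1A, a subunit of the assembly factor CAF-1, for Das (-0.97 ± 0.19) and ASF1B, a chaperone of H3 and H4, for S + D (-3.49 ± 0.48). Of 20 S phase genes 20, 12 and 20 were lower, with medians of -1.69, -0.83 and -2.03. RRM2, the small subunit of ribonucleotide reductase, was at -3.56 ± 0.45 with Sal and -5.46 ± 0.50 with S + D. The lists rest on the same libraries as the members, and the difference between them was not tested.

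**Figure D5:**
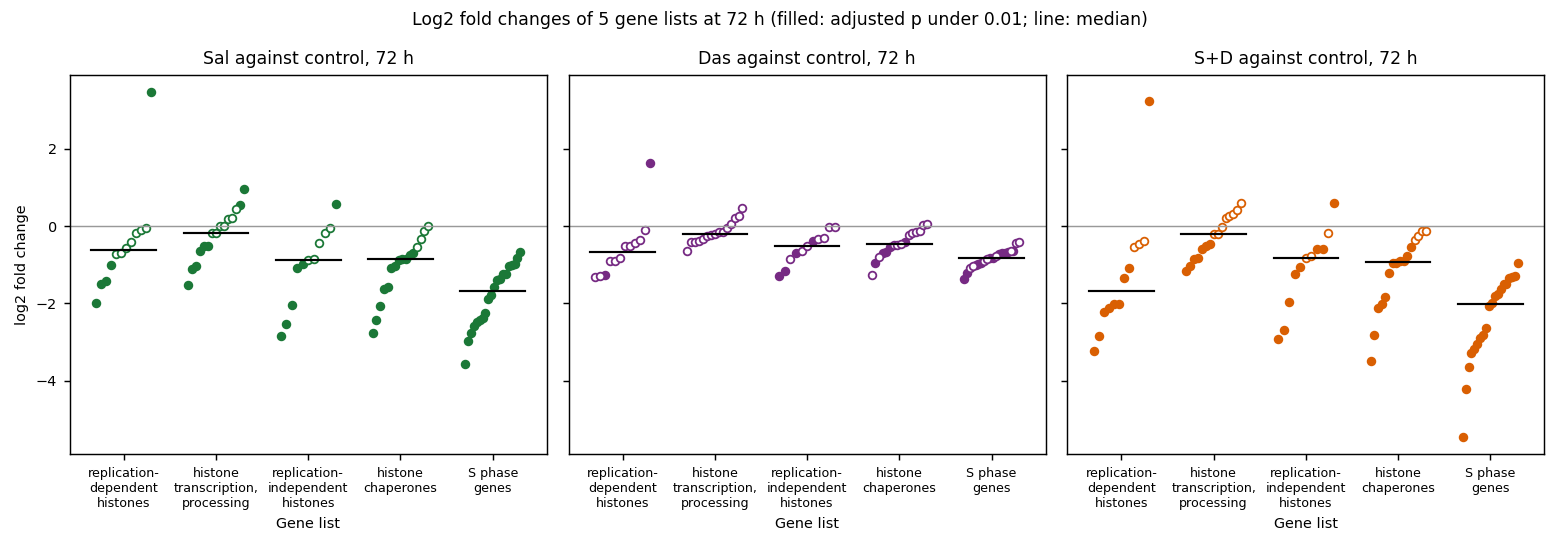
Log2 fold change against the 72 h control (y axis) of each tested gene in 5 lists (x axis), 1 panel per treatment. Filled points have an adjusted p under 0.01 and lines are medians. All 20 S phase genes are filled and below 0 with Sal and with S + D, while 1 histone gene, H2BC15, stands highest in each panel.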

How the data were processed

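Gene counts were deposited by the authors for 32 RNA-seq libraries. Per the labels and the study's methods, single-end 50-base reads were demultiplexed with bcl2fastq 2.19 and aligned with STAR 2.5.2 to GRCh37. The tools also included Cufflinks 2.1.1 and DESeq2. The counting program, annotation and strand setting are not given in the sources used here. Of 48804 gene identifiers 46537 matched the annotation used here and 2267 did not. Groups came from the sample labels.

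From the counts as deposited, library sizes were scaled by TMM, genes were filtered with filterByExpr and tested with edgeR 4.0.16 in R 4.3.3, using all libraries of a time point, or all 32 for comparisons between times, with no covariate. The study describes the replicates as biological and the experiments as independent. The fit was tested on simulated data. DESeq2 1.42.0, other scaling, no filter, other sample sets and leaving out each library were alternatives.

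The members and lists were chosen with earlier results of these data known. Values per library were given for the member with the highest mean CPM of each family, for the 3 largest called rises and falls of each treatment comparison and for 5 members known as polyadenylated. Of the lists, the largest called change was named, with SLBP, NPAT and H2AX, and 1 further gene of that rule is not reported here. H1-4, H2AC11, H2AC25 and H4C16 were named after their values were seen. PECAM1, a further marker, was not analysed here. Numbers in the labels did not pair libraries.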

Additional observations from a re-analysis of the deposited data

Results flagged for a closer look

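In 10 of 80 sets of 4 libraries of 1 condition, 1 library lay far from the other 3. The rule used flags about 1 in 20 sets when values are independent and normally distributed. These sets came from 10 members read in the same 32 libraries, and those of H3C4 held few counts. The 10 flagged sets therefore cannot be compared with that rate. The unnumbered library was the distant one in 7 of the 10. For H2AC6 at 24 h it read 19.5 CPM in the controls, 7.76 CPM with Sal and 9.17 CPM with S + D, the lowest of its set each time. For H2BC5 it read 8.01 CPM in the 24 h controls, also the lowest. With S + D at 24 h it read 2.69 CPM for H1-2 and 0.146 CPM for H3C4, the highest of their sets, and 0.586 CPM for H4C8, the lowest. Das replicate 2 at 24 h was highest for H2BC5 at 8.31 CPM, Das replicate 3 at 72 h was highest for H4C8 at 1.46 CPM, and Sal replicate 1 at 72 h was highest for H3C4 at 0.07 CPM, from 2 counts.

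Of 27 responses of named members compared between 24 h and 72 h, 7 differed in edgeR's test of the difference at an adjusted p under 0.01. With Sal these were H2BC15 (3.00 on the log2 scale) and H2BC4 (-1.64). With S + D they were H2BC15 (2.15), H2BC4 (-2.41), H2BC11 (-2.08), H4C8 (-1.75) and H2AC6 (-1.46).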

How the results depend on the processing

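Counts of members called lower depended on the unnumbered libraries. In the numbered libraries alone they were 6 for S + D, 5 for Das and 1 for Sal at 24 h. These stood beside 29.4%, 18.7% and 10.9% of all genes, against 16.5%, 6.88% and 2.23% in the fit of all libraries. The counts were 2 for Das at 72 h (beside 11.5%), 2 for S + D against Sal at 72 h and 2 for the Sal response between times. With a term for the unnumbered libraries they were 6, 3, 2, 3, 3 and 2 in the same order, beside 15.5% for Das at 72 h. The numbers in the labels did not pair the libraries, judged by deviations from the condition means of the numbered libraries. Between same-numbered libraries these deviations correlated at -0.0804 to 0.0993 at 24 h and -0.198 to 0.0772 at 72 h. Between libraries with different numbers they correlated at -0.126 to 0.0926 and -0.127 to 0.277. With the replicate block the counts were 1 with Sal and 6 with S + D at 24 h, 3 with Das at 72 h, 3 for S + D against Sal and 2 for the Sal response between times. DESeq2 gave 3 for S + D against Sal and 2 for the Sal response between times. The fit of all 32 libraries gave 0 with Das at 24 h, 2 with Das at 72 h and 2 for S + D against Sal. The fit of only the groups compared gave 0 with Das at 24 h and 2 for S + D against Das, and no filter gave 0 with Das at 24 h and 3 for S + D against Sal. With a log2 fold change above 1.5 in size as well, the counts were 0 with Das at both times, 0 lower and 0 higher with S + D at 24 h, 1 with Sal at 72 h, 0 for S + D against Sal and 2 for S + D against Das. Counts in this paragraph without a share of all genes do not show how members moved relative to all genes. The cause was not tested.

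Leaving out 1 library gave 0 to 1 lower with Das at 24 h, 1 to 4 with Das at 72 h, 0 to 2 for S + D against Sal, 2 to 5 for S + D against Das, 0 to 1 below the sum of the single drugs, 1 to 2 lower for the Sal response, 2 to 4 lower for the S + D response and 0 to 1 higher for the Das response between times. The most with Das at 72 h (4, beside 13.2% of all genes) and the 1 for the Das response came without Das replicate 3. The other counts have no share of all genes beside them and do not show how members moved relative to all genes.

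Values near 0 changed sign. In the numbered libraries H2BC12 was at 0.0134 with Sal at 24 h, 0.033 with Sal at 72 h and 0.0167 with Das at 72 h, H4C8 at 0.0734 with Sal at 24 h, H2BC21 at 0.0583 with Sal at 72 h, and H4C8 at -0.25 from the sum of the single drugs. H2BC11 was at 0.0518 from that sum with the replicate block. Leaving out a library, H2BC12 ran from -0.0853 to 0.0668 (Sal, 24 h), -0.0733 to 0.185 (S + D, 24 h), -0.118 to 0.0496 (Sal, 72 h) and -0.147 to 0.0456 (Das, 72 h), H4C8 from -0.373 to 0.0776 (Sal, 24 h) and H2BC21 from -0.34 to 0.27 (Sal, 72 h). From the sum, H1-2 ran from -0.17 to 0.15, H2BC11 from -0.48 to 0.47, H2BC5 from -0.11 to 0.43 and H4C8 from -0.0527 to 0.523. H2BC15 kept its 72 h calls for all 3 treatments and its 24 h call for S + D under the 8 alternatives that kept the threshold and all 8 fits without a library. With the log2 fold change above 1.5 in size as well, it lost the 24 h call. At this depth 20 members did not pass the filter on low counts.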

Other observations

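Sums over families at 72 h cover only the genes matched in the counts, 8 of 16 for H2A and 10 of 16 for H2B. H1 genes stood at 6.62 ± 0.817 CPM in the controls and 1.69 ± 0.422 CPM with S + D (SD, n = 4). The matched H2A genes stood at 25.7 ± 1.11 and 7.79 ± 1.33 CPM. The matched H2B genes stood at 43.6 ± 3.84 and 40.2 ± 11 CPM, and without H2BC12 and H2BC15 at 15 ± 1.8 and 5.65 ± 1.65 CPM. Over all 33 members the sum was 78.5 ± 3.53 CPM in the controls, 50.4 ± 12.2 for S + D, 62.2 ± 12.6 for Das and 71 ± 11.2 for Sal. Without H2BC12 and H2BC15 it was, in the same order, 49.8 ± 2.2, 15.9 ± 2.93, 32.2 ± 11.6 and 28.1 ± 4 CPM.

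In both pairs of tested H2A and H2B genes that start back to back, both genes were called lower with S + D at 72 h. This stood beside 8 of the 12 tested members and 27.9% of all genes, and a part of the arrangement was not tested. H2BC4 and H2AC6, with 219 bases between their starts, were at -3.23 and -2.01 on the log2 scale. H2BC11 and H2AC11, with 248 bases between their starts, were at -2.85 and -1.33. With Sal at 72 h H2BC4, H2AC6 and H2BC11 were called lower and H2AC11, at -0.56 (edgeR adjusted p = 0.0793), was not, and with Das none of the 4 was called.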
